A study of Mus musculus with 15 samples.

Results

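The comparison described here set the transit amplifying (TA) population of a growing tumor against the average of the other 2 endothelial populations. For each gene the mean of the 5 TA libraries was compared with the average of the endovascular progenitor (EVP) mean and the definitive differentiated (D) mean, on the scale of log2(normalized count + 1), which is called the log2 midpoint below. Every gene averaging 5 or more normalized counts across the 15 libraries entered, that is 25549 of the 53465 genes in the table, and no gene was chosen for its values beyond that minimum. The genes closest to the minimum were *Zfp419* and *Gm14002* just inside it, at means of 5.0002 and 5.0015, and *Gm16208* and *Arl13a* just outside it, at 4.9998 and 4.9999.

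The series followed endothelial cells in tumors grown from B16-F0 cells, a mouse melanoma line, injected into CAG-GFP mice, a strain in which the ubiquitous CAG promoter drives green fluorescent protein. Tumors were collected on day 15, and GFP positive cells, the label of the host, were sorted and sequenced. Whether RNA of the unlabelled melanoma cells was left out in full was not tested, and pigment cell genes were read in every library. All 3 populations shared the host strain, the tumor and the day, and were negative for lineage markers and positive for CD34. EVP cells were low for CD31 and low for VEGFR2, TA cells were intermediate for CD31 and low for VEGFR2, and D cells were high for both. Each population had 5 libraries, numbered 1 to 5. Whether libraries with the same number came from the same animals, and how many animals each library pooled, is not given in the sources used here, so the p-values measure the spread between these libraries, which may be technical.

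In a transit amplifying compartment, cells that have left a progenitor state divide before they differentiate, and their expression is often pictured as a midpoint on the way. A gene whose level changes steadily along such a path lies near the midpoint, and a gene above or below both neighbours does not. Blood vessels in a tumor are also surrounded by pericytes, fibroblasts, macrophages, mast cells and pigment cells, each with well-known marker genes.

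Sequencing depth ranged from 5394356 to 26513073 reads counted on genes per library, with a median of 19049194. The share of 1406 olfactory receptor genes with a read was 75.9% to 96.2% in the 3 libraries numbered 1, 51.7% to 65.2% in EVP replicate 2 and TA replicates 2 and 3, and 2.70% to 21.5% in the other 9. The RNA of the gated genes did not follow the gates in every TA library. *Pecam1*, which encodes CD31, was at 15414, 3137, 7783, 4502 and 372.4 normalized counts in TA replicates 1 to 5, against 119.4 to 613.3 in EVP and 19114 to 32189 in D. *Kdr*, which encodes VEGFR2, was at 9699, 2042, 4425, 4425 and 407.9 in the same TA libraries. TA replicate 5 thus lay within the EVP range for *Pecam1*, whose highest EVP library was at 613.3, and for *Kdr*, at 94.1 to 712.1 in EVP, whereas TA replicate 1 lay closest to D. Although both the EVP and the TA gates were low for VEGFR2, *Kdr* in TA replicates 1 to 4 lay above the EVP range. Its difference between TA and EVP was 3.13 (adjusted p = 0.0166 by limma). *Cd34*, positive in each gate, averaged 10604 in TA, 18262 in EVP and 27039 in D, with a difference from the log2 midpoint of -1.17 (adjusted p = 0.0553). Counts below are also given without TA replicate 5, without the 3 libraries numbered 1 and, as a choice made after seeing the data, without all 6 libraries with reads on over 50% of the olfactory receptor genes, which left 3 EVP, 2 TA and 4 D libraries.

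Few genes were called apart from the midpoint. The TA mean fell between the EVP and D means for 11772 genes (46.1%), above both means for 7653 (30.0%) and below both for 6124 (24%), and the median difference from the midpoint was 0.07 on the log2 scale. With limma and Benjamini-Hochberg adjustment over the 25549 genes at a threshold of 0.05, which holds for every call and adjusted p below, 526 genes (2.06%) departed from the midpoint. Of these, 463 (1.81% of the genes tested) were higher in TA and 63 (0.247%) were lower. An unadjusted p under 0.05 against the midpoint was met by 3404 genes (13.3%), and the share against EVP was not counted. The median difference was 2.24 for the genes called higher and -1.27 for those called lower.

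The number of genes called higher depended on the scale and on single libraries. Of the 463 genes, 320 also had a TA mean above the average of the EVP and D means of the normalized counts themselves, 143 lay under it, and limma on the counts without a log called 19 genes higher and 4 lower. In 185 genes the TA mean lay between the other populations, and in 445 the EVP mean was higher than the D mean, against 67.7% of all genes. TA was called higher than D for 453 of the 463, but higher than EVP for 48 and lower than EVP for 42. Without TA replicate 2, 3 or 4 the genes called higher numbered 174, 273 and 306, and without EVP replicate 2 or 3 they numbered 305 and 280. Without TA replicate 5 there were 334, without the 3 libraries numbered 1 there were 957, and without all 6 libraries there were 64, of which 37 were among the 463.

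The stricter question is which genes lay above both other populations or below both. A gene was called above both when TA was higher than EVP and higher than D, each with an adjusted p under 0.05. TA was higher than EVP for 495 genes (1.94%) and lower for 398 (1.56%), and higher than D for 2098 genes (8.21%) and lower for 1101 (4.31%). Since these comparisons share the 5 TA libraries, their values are given side by side and are not independent. In all, 38 genes (0.149%) were above both and 14 (0.0548%) below both. In 64 genes (0.250%) each TA library was higher than each of the 10 others, and in 17 (0.0665%) each was lower. With fewer libraries such separation is met more easily, and leaving out single libraries gave 65 to 173 and 16 to 62 genes. Adjusting the larger of the 2 p-values for each gene in place of both gave 6 genes above both and 1 below both. The number above both was 11, 14 and 23 without EVP replicate 2, 3 or 4, 15 and 18 without TA replicate 3 or 4, and 63 without TA replicate 1. Leaving out TA replicate 5 gave 51 genes above both, of which 30 were among the 38, and 36 below both, of which 11 were among the 14. Leaving out the 3 libraries numbered 1 gave 51 and 16, of which 18 and 7 were shared. Leaving out all 6 libraries gave 0 and 0 by limma, with 373 and 127 genes at unadjusted p under 0.05 in both comparisons, 0 and 0 by edgeR and 90 and 27 by DESeq2. In the limma fit the TA means of the 38 genes lay above both others and those of the 14 below both. Those genes had been chosen for that direction on values that include the libraries kept, so its persistence is no independent support.

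**Figure D1:**
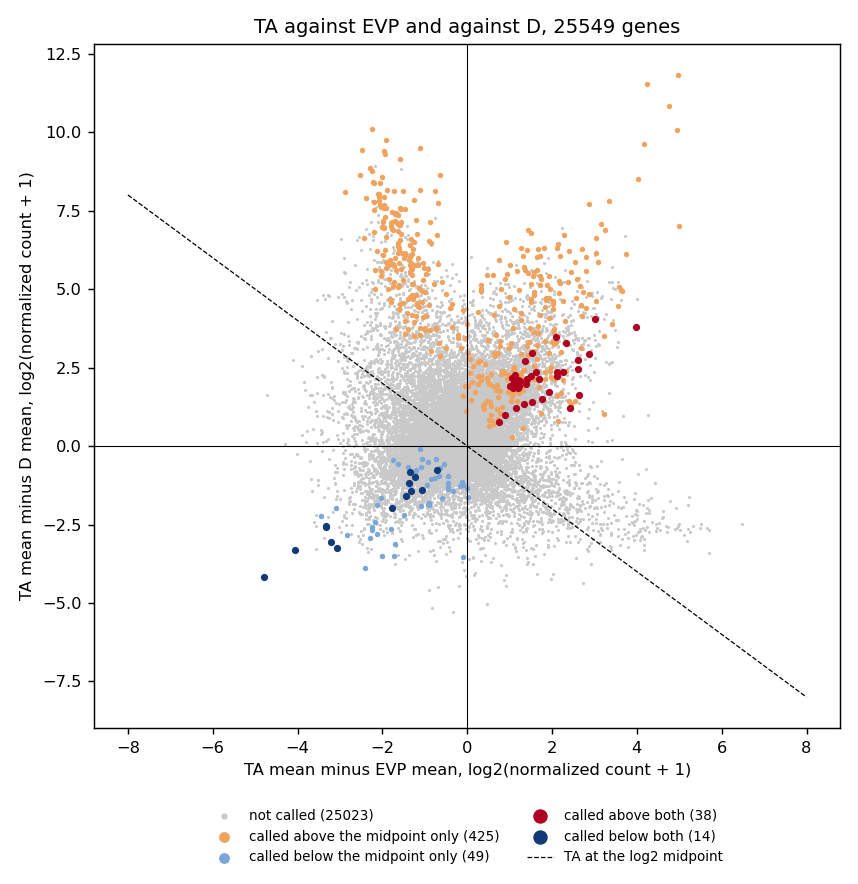
Each point is 1 of 25549 genes, with the TA mean minus the EVP mean on the horizontal axis and the TA mean minus the D mean on the vertical axis, both in log2(normalized count + 1). The dashed line is the log2 midpoint: 38 genes called above both lie to the upper right, 14 called below both to the lower left, and the 425 genes called above the midpoint only include a group with TA below EVP and far above D.

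All 38 genes above both were protein coding. In 25 of them the TA libraries did not overlap the other 10, 28 were not called between EVP and D, and the ratio of the TA mean to the higher of the other means ran from 1.71 to 9.45. Of the 38, 9 were in lists of cell type markers, and these were 4 pigment cell genes, 2 macrophage genes, 2 genes of leukocytes in general and *Pf4*, a chemokine stored in platelets. The other 29 were in no cell type list. In sorted cell pools, more cells of a type and more RNA per cell cannot be told apart. Within TA, replicate 3 was the highest library for 20 of the 38 genes, replicate 4 for 11 and replicate 2 for 7.

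**Figure D2:**
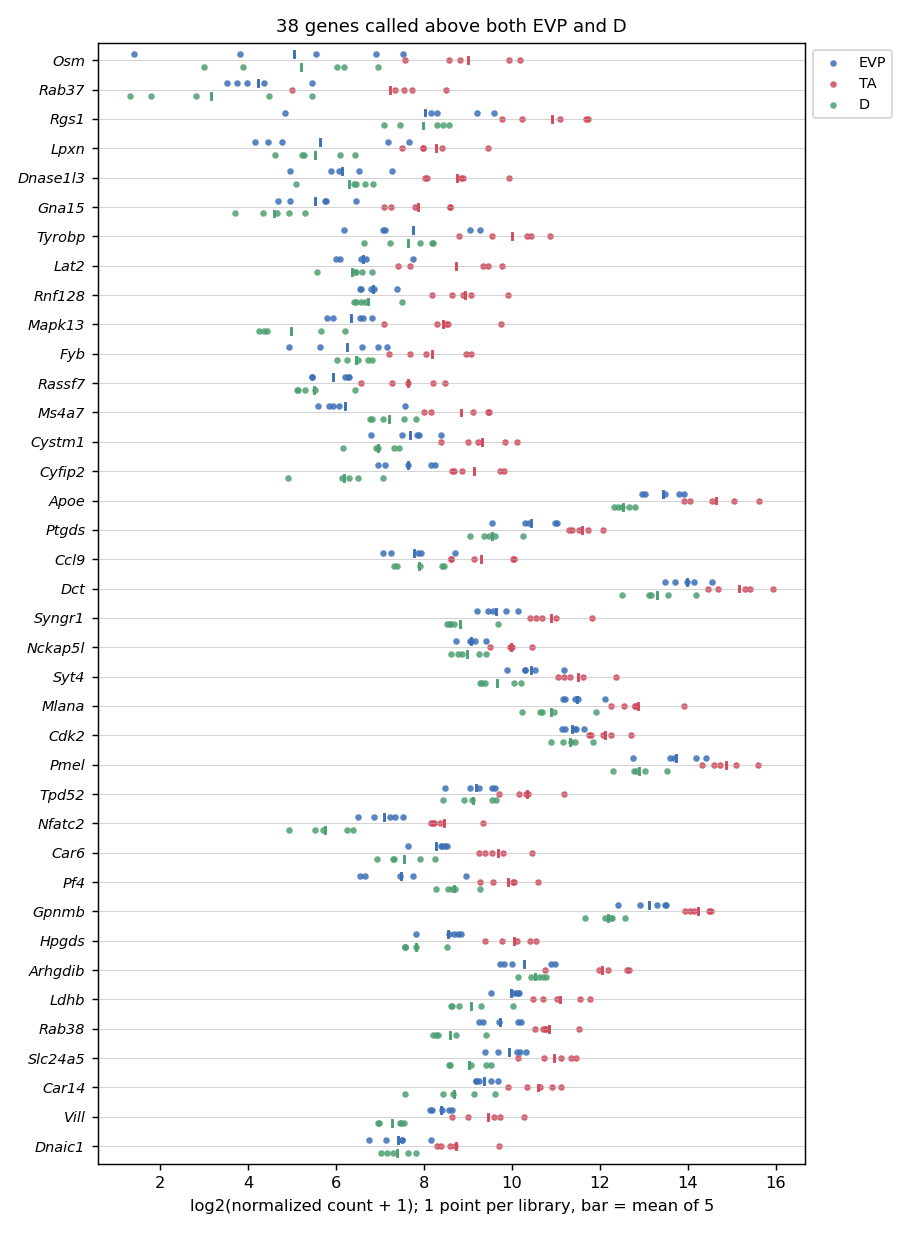
Each row is 1 of the 38 genes called above both populations, and the horizontal axis is log2(normalized count + 1) in each of the 5 EVP, TA and D libraries, with a bar at each mean. The TA bar is rightmost in each row, and in 25 rows, *Osm* and *Gna15* among them, each TA library lay above all others.

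All 10 pigment cell genes had their highest mean in TA, and all 10 were called higher than D but 4 higher than EVP. *Gpnmb* (ENSMUSG00000029816, chromosome 6, 49036546 to 49070929, GRCm38), a glycoprotein of melanosomes that macrophages also make, was at 15661, 16997, 23487, 22751 and 17896 normalized counts in TA. In EVP it was at 11530.4, 5445, 7651, 10069 and 11341, and in D at 4451, 3249, 6024, 4945 and 4834. The lowest TA library was thus above the highest of the others. The TA mean of 19358 ± 3534 (SD, n = 5) was 2.10 times that of EVP and 4.12 times that of D, and the difference from the midpoint was 1.58 ± 0.18 (SE, adjusted p = 0.00121), the smallest adjusted p among the 38.

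*Mlana*, a melanosome protein, was at 4898, 5952, 15451, 7121 and 7052 in TA, from 2274 to 4398 in EVP and from 1202 to 3854 in D, so that the groups did not overlap. Its difference was 1.38 from EVP (adjusted p = 0.0204) and 1.98 from D (adjusted p = 0.000365). *Dct*, the dopachrome tautomerase of melanin synthesis, was at 22269, 26445, 62754, 43188 and 40325 in TA. It ranged from 11465 to 23983 in EVP and from 5775 to 18493 in D, and TA replicate 1 lay under the highest EVP library. The difference was 1.19 from EVP (adjusted p = 0.0379) and 1.86 from D (adjusted p = 0.000470). *Pmel*, whose product forms the fibrils of melanosomes, differed by 1.14 from EVP (adjusted p = 0.0408) and by 1.98 from D (adjusted p = 0.000203).

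These calls were not equally firm. That of *Gpnmb* held when any of the 15 libraries was left out, whereas *Mlana* missed the threshold against EVP without EVP replicate 2, 3 or 4 (adjusted p = 0.0687, 0.0530 and 0.0539). *Dct* missed it without EVP replicate 1, 2, 3 or 4 or TA replicate 3, 4 or 5, with its highest adjusted p of 0.117 without EVP replicate 2, and *Pmel* was above both in 6 of 15 such fits. *Cdk2*, a kinase of S phase entry, was also above both, by 0.74 and 0.78, but in only 4 of 15 such fits. It overlaps *Pmel* by 837 bases on the opposite strand of chromosome 10. Whether the counting used strand is not given in the sources used here.

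Over the list of 10 the median difference from the midpoint was 1.50, against 0.07 over all genes, and 9 of 10 were called above the midpoint. The 4 called higher than EVP were 2 with edgeR and 8 with DESeq2. *Mitf*, the transcription factor of the pigment lineage, differed by 1.32 from the midpoint (SE 0.19, adjusted p = 0.00283) with means of 812.9 in TA, 598.4 in EVP and 180.1 in D. *Sox10*, a factor of neural crest derivatives, was the member not called, at 1.35 (adjusted p = 0.128). Summed over the list, TA libraries ranged from 90794 to 209807 normalized counts, EVP from 37031 to 83663 and D from 24810.5 to 57319, so that the groups did not overlap, and none of the 10 genes was at 0 in any library. The part of pigment cells in these differences was not tested. Further genes above both that act in melanosomes were *Slc24a5*, an ion exchanger, and *Rab38*, a GTPase that sorts cargo to them, at 1.02 and 1.12 above EVP (adjusted p = 0.0492 and 0.0279). *Slc24a5* was above both in 2 of 15 fits without a library and *Rab38* in 10 of 15.

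Promoters of pigment genes are shown because 9 of the 10 genes were called above the midpoint, although *Tyr* and *Tyrp1*, enzymes of melanin synthesis, were not called against EVP (adjusted p = 0.205 and 0.0842). The 250 bases before the start site were read from the RefSeq promoter table on GRCm38.p6, which held 26 of the 38 genes above both and 6 of the 10 pigment genes, and *Mlana* and *Pmel* were not among them. The E-box CATGTG, or CACATG on the other strand, occurred in 4 of those 6 promoters, in 3 of the 26 and in 12.3% of all 27025 promoters of the same length. The GATA motif described further down occurred in 3 of the 6 and 4 of the 26. Both strands were searched. Capitals mark each match of the E-box in the 4 sequences below, where matches of the GATA motif are in lower case. Every sequence runs 5′ to 3′ on the strand of its gene. Those of *Dct* (chr14:118052247-118052496, minus strand), *Trpm1* (chr7:64153585-64153834, plus strand), *Tyr* (chr7:87493513-87493762, minus strand) and *Tyrp1* (chr4:80833963-80834212, plus strand) hold the match.
Dct: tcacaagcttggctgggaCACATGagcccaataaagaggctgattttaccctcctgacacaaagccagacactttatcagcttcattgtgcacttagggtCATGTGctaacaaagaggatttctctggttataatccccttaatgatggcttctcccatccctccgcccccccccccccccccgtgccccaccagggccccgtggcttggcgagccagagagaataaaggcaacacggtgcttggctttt
Trpm1: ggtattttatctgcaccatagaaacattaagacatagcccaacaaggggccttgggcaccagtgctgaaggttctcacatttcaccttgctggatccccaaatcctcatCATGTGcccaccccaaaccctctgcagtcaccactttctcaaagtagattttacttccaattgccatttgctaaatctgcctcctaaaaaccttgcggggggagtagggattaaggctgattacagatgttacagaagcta
Tyr: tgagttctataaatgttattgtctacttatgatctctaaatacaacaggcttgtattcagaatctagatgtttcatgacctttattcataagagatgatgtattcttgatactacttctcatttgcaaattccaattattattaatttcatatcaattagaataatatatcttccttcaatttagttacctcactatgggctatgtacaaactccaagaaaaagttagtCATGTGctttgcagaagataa
Tyrp1: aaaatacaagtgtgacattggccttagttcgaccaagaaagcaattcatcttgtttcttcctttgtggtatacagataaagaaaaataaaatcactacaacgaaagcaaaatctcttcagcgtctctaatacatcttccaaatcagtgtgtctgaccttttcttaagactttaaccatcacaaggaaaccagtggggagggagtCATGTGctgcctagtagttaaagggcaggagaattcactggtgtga
The matches began 232 and 150 bases before the start of *Dct*, 141 before that of *Trpm1*, 21 before that of *Tyr* and 46 before that of *Tyrp1*. A match in these letters is a description and says nothing of binding.

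Genes known from blood cells were among those above both. *Osm*, which encodes the cytokine oncostatin M, lay furthest above its nearer neighbour, by 3.80 over D and 3.98 over EVP. It was at 451.6, 1150.7, 378.4, 968.4 and 189.3 normalized counts in TA, from 1.64 to 182.2 in EVP and from 7.03 to 122.2 in D, with TA replicate 5 just above the highest EVP library. The TA mean of 627.7 ± 410.8 was 8.70 times that of EVP and 11.2 times that of D, but the gene was above both in 6 of 15 fits without a library, and its adjusted p against EVP was 0.109 without EVP replicate 2. *Rgs1*, a regulator of G protein signalling in lymphoid and myeloid cells, was at 1200, 3275, 2188, 3383 and 868.1 in TA and at 27.8 to 773.7 and 135.2 to 377.1 in EVP and D. All TA libraries were above the others, by 2.88 on average over EVP (adjusted p = 0.0251) and 2.93 over D (adjusted p = 0.00746), and the first missed the threshold without EVP replicate 2 or TA replicate 2, 3 or 4 (adjusted p = 0.0627, 0.0524, 0.0612 and 0.0629).

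*Gna15*, a G protein subunit largely restricted to blood cells, kept its call without any of the libraries. Its TA libraries were at 150.0, 222.4, 386.2, 382.4 and 135.8, against 24.5 to 87.1 in EVP and 12.1 to 38.4 in D, with no overlap. The differences were 2.34 from EVP (adjusted p = 0.00949) and 3.28 from D (adjusted p = 0.000119). *Dnase1l3*, a nuclease secreted by macrophages and dendritic cells, was at 260.3, 473.8, 454.3, 976.3 and 267.1 in TA, from 30.0 to 152.7 in EVP and from 33.1 to 114.0 in D. The TA mean was 6.11 times the EVP mean and 5.83 times the D mean, and TA replicate 4 was the highest. *Rnf128*, a ubiquitin ligase that dampens T cell activation, was at 398.1, 960.8, 475.5, 536.7 and 289.6 in TA. In EVP it was at 91.6 to 167.3 and in D at 84.1 to 179.0, so that the folds over them were near each other, at 4.60 and 4.90.

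Both prostaglandin D synthases were above both populations. *Hpgds*, the form of mast cells and other blood cells, was at 665.3, 1365, 1100.5, 1482 and 868.7 in TA, from 225.8 to 460.5 in EVP and from 188.1 to 365.6 in D. Its differences were 1.50 from EVP (adjusted p = 0.00647) and 2.23 from D (adjusted p = 2.94e-05), with no overlap between TA and the others. *Ptgds*, the lipocalin form, differed by 1.15 (adjusted p = 0.0258) and 2.05 (adjusted p = 7.26e-05). *Car6*, a secreted carbonic anhydrase, was at 670.5, 750.7, 1406, 883.0 and 607.2 in TA, above the highest EVP value of 368.7 and the highest D value of 305.6. The genes *Gpnmb*, *Hpgds*, *Gna15*, *Dnase1l3*, *Rnf128* and *Car6* were above both under each of 29 settings, and with *Ms4a7* and *Arhgdib* they made up the 8 of 38 whose call survived the removal of any library. Neither the removal of 6 libraries nor the counts without a log were among the 29 settings.

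All 12 macrophage genes had their highest mean in TA, 9 of 12 were called higher than EVP, 3 of 12 higher than D and 3 of 12 above the midpoint, with a median difference of 1.64. The number higher than EVP was 3 with edgeR and 10 with DESeq2, and the number above the midpoint was 9 with DESeq2 and 7 with libraries scaled to the same total. *Apoe*, a lipid carrier that macrophages secrete, differed by 1.20 from EVP (adjusted p = 0.0213) and 2.10 from D (adjusted p = 5.80e-05). *Ms4a7*, a membrane protein of tissue macrophages, differed by 2.64 (adjusted p = 0.00260) and 1.64 (adjusted p = 0.0121). *Lyz2*, the lysozyme of myeloid cells, averaged 10830 in TA, 2773 in EVP and 3876 in D, at an adjusted p of 0.0592 against the midpoint. The summed list ranged from 25394 to 68919 normalized counts in TA, from 10329.8 to 24013 in EVP and from 11572.5 to 20930.0 in D, without overlap, and none of the 12 was at 0 in any library.

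Genes shared by leukocytes were higher in TA on the whole. Of 10, 4 were called above the midpoint, 7 higher than D and 4 higher than EVP, and the median difference was 1.84. With edgeR 1 was called higher than EVP, and with DESeq2 8 were called above the midpoint. *Tyrobp*, the adaptor of activating receptors on myeloid cells, was at 441.2, 1298, 1372, 1870.2 and 742.9 in TA, at 72.0 to 621.0 in EVP and at 98.5 to 295.2 in D. TA replicate 1 lay within the EVP range, and the difference of 2.25 from EVP (adjusted p = 0.0315) was not called without EVP replicate 1, 2 or 3 or TA replicate 2, 3 or 4 (adjusted p from 0.0571 to 0.0969). *Arhgdib*, a gene abundantly expressed in blood cells, differed by 1.75 from EVP (adjusted p = 0.00728) and 1.50 from D (adjusted p = 0.00496). The summed list ran from 11398 to 47595 in TA, from 2805 to 13807 in EVP and from 8898.5 to 13562 in D, so that it overlapped both, and *Ptprc*, which encodes the pan-leukocyte antigen CD45, averaged 1682, 774.9 and 220.6 in TA, EVP and D although lineage positive cells had been gated out. The part of such cells in the genes above both was not tested.

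Mast cell genes led the departures from the midpoint, and the 15 genes furthest above it were all called against D, with adjusted p from 0.0595 (*Prss34*) to 0.299 (*Tph1*) against EVP. *Cma1*, the mast cell chymase, was at 7656, 31096, 23462, 27713 and 1107 normalized counts in TA. In EVP it was at 168.5, 2824, 1322, 3801 and 1.38, and in D at 4.12, 0, 0, 53.3 and 0. TA replicate 5 lay within the EVP range, and the gene departed from the midpoint by 8.39 ± 1.46 (SE, adjusted p = 0.00749), by 11.82 from D (adjusted p = 0.000140) and by 4.97 from EVP (adjusted p = 0.13). *Cpa3*, the mast cell carboxypeptidase, was at 6891, 23623, 22476, 40328 and 1684 in TA and departed by 7.80 ± 1.54 (adjusted p = 0.0150). Without TA replicate 2 its adjusted p was 0.0536, and those of *Fcer1a*, the IgE receptor alpha chain, and *Prss34*, a mast cell protease, were 0.0663 and 0.0669. *Mrgprb1*, a receptor of mast cells, and *Tph1*, a hydroxylase of serotonin synthesis, missed the threshold without TA replicate 2, 3 or 4.

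The 12 mast cell genes had a median departure of 5.44, 8 were called above the midpoint, 10 higher than D and 1 higher than EVP. That 1 was *Kit*, the stem cell factor receptor, at 2.92 above EVP (adjusted p = 0.00399) and 0.66 below D (adjusted p = 0.495). *Tpsb2*, a tryptase whose reads may be shared with the near-identical *Tpsab1*, departed by 7.89. The summed list was 29680.2, 91690, 74727, 109625.5 and 6059 in TA, from 2091 to 18390.4 in EVP and from 2759 to 3832 in D. Replicates 2, 3 and 4 thus carried most of it. The share of olfactory receptor genes with a read was 75.9%, 51.7%, 65.2%, 4.1% and 3.7% in TA replicates 1 to 5. The part of such reads in the result was not tested. Several members were at 0 in D libraries, *Tpsb2* in 4 of 5, and TA replicate 5 was the lowest TA library for 13 of the 15 genes furthest above the midpoint.

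The promoters of mast cell genes are shown for the motif of the GATA family. The letters AGATAA, or TTATCT on the other strand, occurred in the 250 bases before the start site of 4 of 11 mast cell genes with a promoter in the table and in 10.2% of all promoters, and no match overlapped one of the E-box, which occurred in 1 of the 11. Those of *Cpa3* (chr3:20242182-20242431, minus strand) and *Fcer1a* (chr1:173227230-173227479, minus strand) follow with the match in capitals, at 46 and 92 bases before the start.
Cpa3: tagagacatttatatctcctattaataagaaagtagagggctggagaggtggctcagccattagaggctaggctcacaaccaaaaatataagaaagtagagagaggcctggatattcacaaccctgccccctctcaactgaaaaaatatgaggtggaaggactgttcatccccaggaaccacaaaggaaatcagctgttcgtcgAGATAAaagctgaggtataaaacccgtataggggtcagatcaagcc
Fcer1a: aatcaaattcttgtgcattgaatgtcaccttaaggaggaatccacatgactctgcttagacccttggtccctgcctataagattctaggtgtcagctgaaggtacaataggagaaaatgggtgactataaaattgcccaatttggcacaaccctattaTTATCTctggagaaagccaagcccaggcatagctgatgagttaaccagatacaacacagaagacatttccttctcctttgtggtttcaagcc
*Tpsb2* had no entry in the table.

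**Figure D3:**
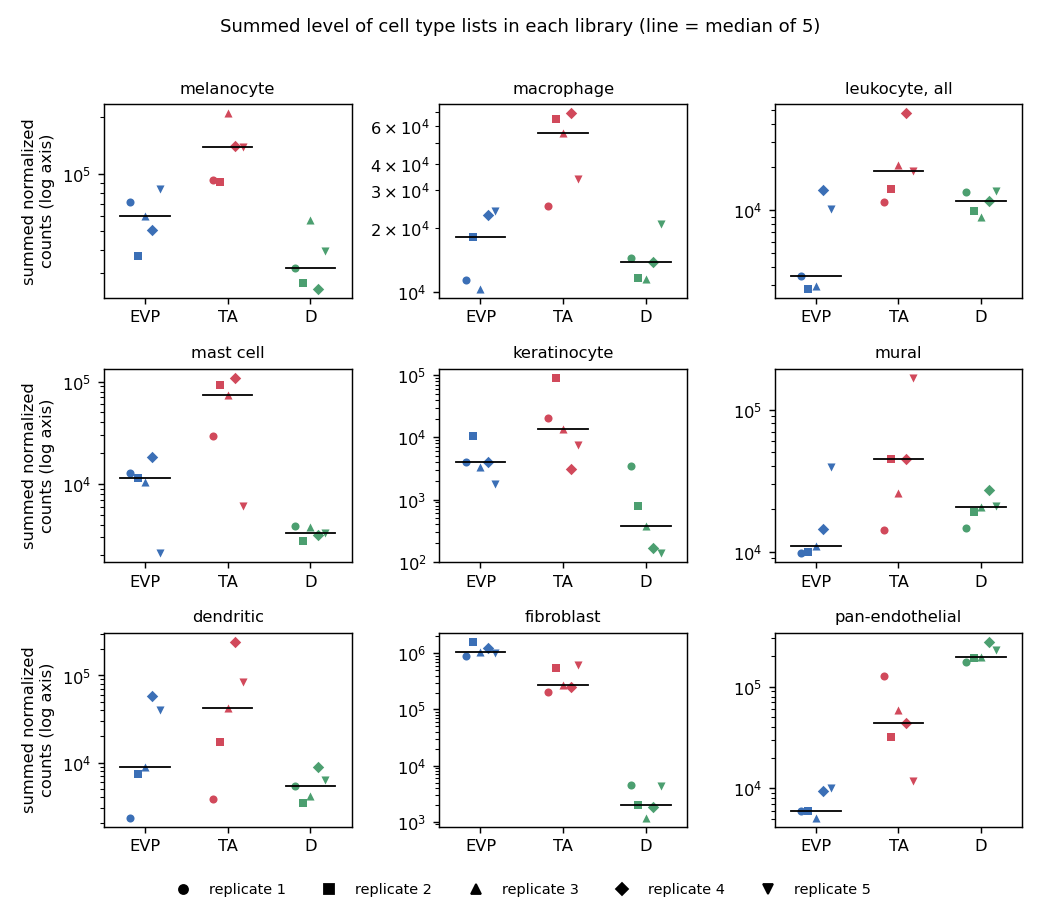
Summed normalized counts of 9 cell type lists in each library on log axes, with 1 symbol per replicate number and a line at the median of 5. Pigment and macrophage sums were higher in each TA library than in any other, mast cell sums were high in TA replicates 2 to 4 and low in TA replicate 5, and fibroblast and endothelial sums lay between EVP and D.

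Other cell type lists were high in individual TA libraries. Of 10 keratinocyte genes, 9 had their highest mean in TA, 9 were called higher than D, 3 above the midpoint and 0 higher than EVP by limma, where 1 had an unadjusted p under 0.05, edgeR called 0 and DESeq2 called 2. Above the midpoint DESeq2 called 8. The summed list was 20766, 91265, 13474, 3075 and 7552 in TA, so that replicate 2 held the most, against 1787 to 10661 in EVP. *Krt79*, a keratin of hair follicle and sebaceous cells, was at 1449.5, 1852, 276.8, 396.5 and 241.0 in TA, with all 5 above the highest EVP value of 197.3 and the highest D value of 56.3. It was the member of the 15 furthest genes without overlap, and its departure from the midpoint was 5.12 ± 0.94 (adjusted p = 0.00997), and its difference from EVP was 3.16 (adjusted p = 0.133).

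Pericyte and smooth muscle genes were highest in TA replicate 5. Of 14, 4 were called above the midpoint, 3 higher than EVP and 8 higher than D. The number above the midpoint ran from 1 with quantile normalization to 7 with edgeR and 11 with DESeq2, which called 7 higher than EVP. The summed list was 167919 in TA replicate 5 against 14285 to 45150.0 in the other TA libraries. EVP ranged from 9739.8 to 39311 and D from 14695 to 27362, so that both overlapped TA. *Rgs5*, a pericyte marker, was at 1029, 14465, 8292, 25309 and 85852 in TA and departed by 2.63 (adjusted p = 0.0927). The other genes among the furthest 15, *Atp8b5*, *Cyp11a1*, *Wnt10a* and *Kcnmb1*, departed by 4.48 to 4.93. Dendritic cell genes were highest in TA replicate 4, with a sum of 243110.5 against 3768 to 84245 in the other TA libraries. EVP libraries ranged from 2324 to 58298.5, with EVP replicates 4 and 5 highest, and overlapped TA, and D ranged from 3460 to 8778. Of 11 genes 1, *Flt3*, a cytokine receptor of dendritic cell precursors, was called above the midpoint, at 4.15 (adjusted p = 0.0353). *Flt3* lost the call in 11 of 15 fits without a library, while DESeq2 called 6 of the 11. The part of these cell types in the calls was not tested.

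Fibroblast genes departed upward in a different way. Of 14, 13 were called above the log2 midpoint with a median departure of 2.79, 14 were called higher than D and 6 lower than EVP, and all 14 TA means lay between the others. *Col1a1*, a chain of type I collagen, averaged 109206 in TA, 292750 in EVP and 897.0 in D, a departure of 2.71 ± 0.36 (adjusted p = 0.00161). On the counts themselves TA was under the average of EVP and D for each of the 14, with a median ratio of 0.540, and the difference for *Col1a1* without a log was -37600 (adjusted p = 1.0). The direction for these genes thus depended on the scale.

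Endothelial genes lay between the other populations. Of 20 genes of endothelial cells in general, 15 were called higher in TA than in EVP and 16 lower than in D, the TA mean lay between the others for 19, and the median departure was 0.55. It was 0.97 with edgeR and 1.05 with DESeq2, whereas on the counts themselves TA was under the average of EVP and D for each of the 20, with a median ratio of 0.495, so that the direction depended on the scale. *Cdh5*, the cadherin of endothelial junctions, averaged 2781 in TA, between 72.3 in EVP and 9818 in D, and departed by 1.13 (adjusted p = 0.549). *Emcn*, an endothelial sialomucin, averaged 3949 in TA, between 152.6 in EVP and 16467 in D, and departed by 0.98 (adjusted p = 0.629). By limma 0 of the 20 were called above the midpoint and 2 had an unadjusted p under 0.05, while edgeR called 0 higher and DESeq2 called 2. The summed list was 127087, 31739, 58947, 43957 and 11695 in TA replicates 1 to 5, all of them between the highest EVP value of 10083 and the lowest D value of 175796.

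*Tek*, the angiopoietin receptor, was the 1 gene of the list of 20 general endothelial genes that was called below the midpoint. It was at 851.5, 652.3, 251.1, 923.8 and 236.6 in TA, from 585.0 to 2335 in EVP and from 1689 to 3373 in D. TA overlapped EVP but not D. The difference from the midpoint was -1.85 ± 0.37 (adjusted p = 0.0153), from D -2.21 (adjusted p = 0.00199) and from EVP -1.49 (adjusted p = 0.0660), and without TA replicate 3 the first was -1.61 (adjusted p = 0.0508). Of 20 tip cell genes 1, the laminin gene *Lama4*, was called below the midpoint, at -0.68 (adjusted p = 0.0453), and 13 were called higher than EVP and 12 lower than D. *Lama4* lost the call in 10 of 15 fits without a library, and with edgeR, the same total or quantile normalization it was not called.

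Genes of cell division were not called against the midpoint. Of 19 S phase and 20 G2 and M phase genes, 0 were called above or below it by limma. An unadjusted p under 0.05 was met by 6 and 1 of them, against 13.3% of all genes. Calls by edgeR numbered 0, and DESeq2 called 1 and 0. The medians were 0.20 and 0.23 against 0.07 over all genes. In the comparison with EVP 1 S phase gene was called higher by limma, 10 had an unadjusted p under 0.05, and 6 were called with DESeq2 and 5 with libraries scaled to the same total. Of the G2 and M phase genes 0 were called higher than EVP by limma, 10 had an unadjusted p under 0.05, edgeR called 0 and DESeq2 called 1, and the medians were 0.55 for both lists. Their summed levels in TA ranged from 27053 to 41394 for S phase and from 26306 to 45655 for G2 and M phase. They overlapped those of D, at 24789.7 to 38621 and 31123 to 43419. The S phase sum was higher in each TA library than in any EVP library, at 15828 to 26382. The G2 and M phase sum of EVP, at 11850.2 to 30582, overlapped that of TA. Genes of the cytoplasmic ribosome, with a median of 0.14, and of oxidative phosphorylation, with a median of 0.27, had 0 calls by limma as well, with 0 and 8 genes at an unadjusted p under 0.05, and DESeq2 called 0 and 2.

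**Figure D4:**
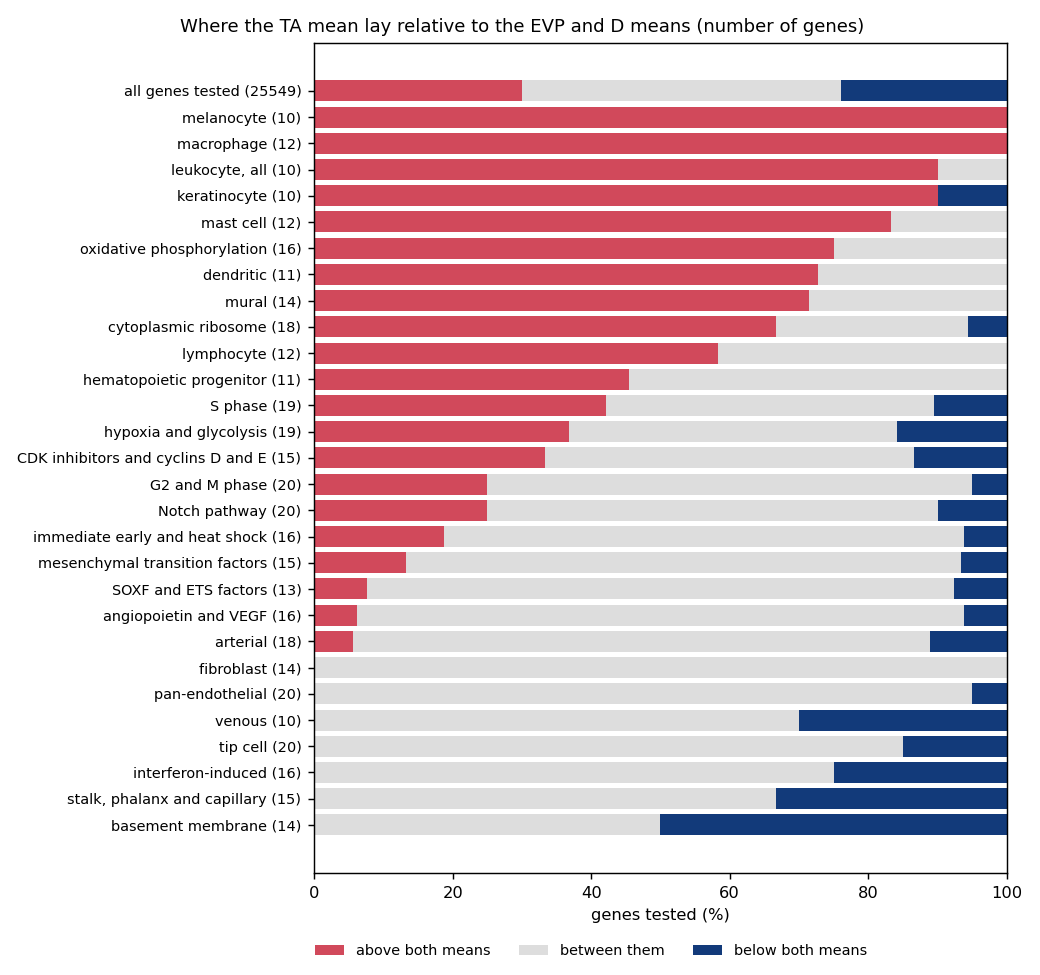
For each list with at least 10 genes tested, the bar shows the share of genes whose TA mean lay above both other means, between them or below both, with the number of genes in brackets. All 10 pigment and 12 macrophage genes lay above both, all 14 fibroblast genes and 19 of 20 endothelial genes between, and the top bar gives the 30.0%, 46.1% and 24% of all genes.

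Far fewer genes were low in TA. Of the 63 genes called below the midpoint, 61 had a TA mean below both others, 50 were called lower than D and 27 lower than EVP, and 50 were protein coding. Of the 14 genes below both, 10 were protein coding, none was called between EVP and D, and in 5 the TA libraries did not overlap the others. None of the 10 was in a cell type list. The 63 became 19 and 22 without TA replicate 2 or 3, 24, 24 and 28 without EVP replicate 2, 3 or 4, 26 to 32 without D replicate 2, 3, 4 or 5, 102 without D replicate 1 and 140 without TA replicate 1. Without TA replicate 5 they were 57, without the 3 libraries numbered 1 they were 204, and without all 6 libraries with many olfactory receptor reads they were 4, of which 1 was among the 63. The 14 became 5, 6 and 7 without EVP replicate 2, 3 or 4, 9 without TA replicate 3, 23 without EVP replicate 5, and 41 and 36 without TA replicate 4 or 5.

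*Fam171a1*, which encodes a membrane protein, was the gene called below both under each of the same 29 settings. It was at 387.8, 229.4, 186.4, 351.0 and 311.4 normalized counts in TA, from 436.3 to 1194.0 in EVP and from 772.9 to 930.8 in D, with no overlap. The TA mean of 293.2 ± 83.8 was 0.351 of the EVP mean and 0.345 of the D mean, and the departure was -1.51 ± 0.25 (adjusted p = 0.00536). *Anxa3*, a calcium-dependent phospholipid-binding protein, was at 4893, 5223, 4102, 5696 and 4486 in TA, from 8396 to 18119 in EVP and from 7495 to 9754 in D. The TA libraries lay close together and below all others, at -1.34 from EVP (adjusted p = 0.00184) and -0.81 from D (adjusted p = 0.00834). *Ly6e*, a GPI-anchored protein induced by interferon, was at 10084.7, 9046.5, 6732, 8504 and 6429 in TA, all under the lowest other library at 10488. Its differences were -0.72 from EVP (adjusted p = 0.0234) and -0.76 from D (adjusted p = 0.00538), and the first was lost without EVP replicate 2 or 4 or TA replicate 3 (adjusted p = 0.0814, 0.0679 and 0.0692).

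*Npr1*, the receptor of atrial natriuretic peptide, was at 367.1, 152.1, 53.6, 187.3 and 97.1 in TA, from 263.4 to 898.3 in EVP and from 443.3 to 765.5 in D, with TA replicate 1 inside the EVP range. It departed by -1.86 ± 0.36 (adjusted p = 0.0142), and its call against EVP was lost without EVP replicate 2, 3 or 4 or TA replicate 3. *Pdgfd*, a ligand of the PDGF receptor beta, averaged 631.4 in TA, 1655 in EVP and 1700.2 in D, at -1.33 from EVP (adjusted p = 0.0201) and -1.43 from D (adjusted p = 0.00374). *Hdac7*, a class IIa histone deacetylase, averaged 535.8, 1118 and 1389, at -1.08 from EVP (adjusted p = 0.0373) and -1.39 from D (adjusted p = 0.00240). *Plscr2*, of the phospholipid scramblase family, and *Cpne8*, of the copine family, completed the protein-coding genes below both, at -1.27 and -1.11 from the midpoint. Of the 15 fits without a library, the call below both held in 8 for *Hdac7* and for *Cpne8*, 11 for *Plscr2* and 12 for *Pdgfd*.

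The 2 most negative departures belonged to genes of low counts with TA libraries at 0. *Atoh8*, a basic helix-loop-helix factor, was at 1.72, 0, 1.12, 7.84 and 49.2 in TA, from 46.6 to 99.9 in EVP and from 21.2 to 101.6 in D. A count of 3 reads corresponds to between 1.87 and 5.17 normalized counts in the TA libraries, so replicates 1 to 3 were at or under that limit, and TA replicate 5, at 49.2, lay within the range of the others. *Pcdhb9*, of the protocadherin beta cluster whose members are alike in sequence, was at 0, 0, 0, 83.8 and 46.1 in TA and departed by -4.50 ± 0.97 (adjusted p = 0.0233). It missed the threshold without TA replicate 2 or 3 (adjusted p = 0.0835 and 0.0722). *Pcdhb9* was called below both in 8 of 15 fits without a library.

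**Figure D5:**
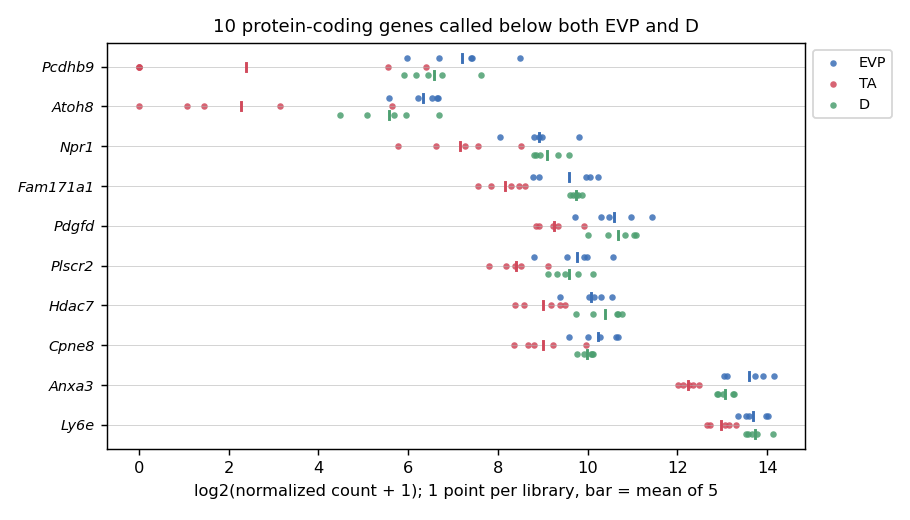
Each row is 1 of the 10 protein-coding genes called below both populations, and the horizontal axis is log2(normalized count + 1) in each of the 5 EVP, TA and D libraries, with a bar at each mean. The TA points of *Fam171a1*, *Anxa3* and *Ly6e* lie left of all others, while those of *Pcdhb9* and *Atoh8* are at 0 in some TA libraries and reach the range of the others in TA replicate 4 and TA replicate 5 respectively.

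Among the lists with a negative median, that of stalk, phalanx and capillary genes was the lowest, at -0.57. Of its 15 genes 5 had their lowest mean in TA, 6 were called lower than D and 5 higher than EVP, and 0 were called below the midpoint by limma, where 4 had an unadjusted p under 0.05, edgeR called 0 and DESeq2 called 1. Of 16 interferon-induced genes, 0 were called on either side of the midpoint by limma, 4 had an unadjusted p under 0.05, edgeR called 0 and DESeq2 called 1. The median was -0.28, 12 of the 16 TA means lay between the others, and 8 genes were called lower than EVP and 3 higher than D. *Ifit1*, an antiviral protein, averaged 936.8 in TA, between 2810 in EVP and 421.2 in D, and departed by -0.20 (adjusted p = 0.896). Of 14 basement membrane genes, 7 had their lowest mean in TA and 1, *Lama4*, was called below the midpoint, with a median of -0.39 and 8 called lower than D. The other genes furthest below the midpoint were *Tmem200b*, *Gpr1*, *Nkrf*, *Zbtb40*, *Cables2*, *Btbd2*, *Chst11*, *Ripply3*, *Lims2* and *Rab35*, at -1.38 to -3.16, of which *Chst11* was called against EVP. Without single libraries *Nkrf*, *Btbd2*, *Chst11* and *Ripply3* lost the call in 12 of 15 fits, *Rab35* in 11, *Gpr1* and *Cables2* in 9, *Zbtb40* in 5, and *Tmem200b* and *Lims2* in 1.

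The remaining genes above both were not in any list. *Rab37*, a small GTPase of secretory vesicles, had the highest ratio to its nearer neighbour, with means of 189.9 in TA, 20.1 in EVP and 14.7 in D, and lost its call in 11 of 15 fits without a library. *Lpxn*, a focal adhesion protein of blood cells, *Lat2* and *Fyb*, adaptors of immune receptors, and *Mapk13*, a p38 kinase, differed from EVP by 1.93 to 2.62 and from D by 1.72 to 3.46. *Nfatc2*, a transcription factor of activated lymphocytes, differed by 1.37 and 2.70, and *Ccl9*, a chemokine, by 1.52 and 1.39. *Syt4* and *Syngr1*, proteins of secretory vesicles, *Car14*, a carbonic anhydrase, and *Ldhb*, a lactate dehydrogenase subunit, differed from EVP by 1.07 to 1.25 and from D by 1.86 to 2.08. *Rassf7*, *Cystm1*, *Cyfip2*, *Nckap5l*, *Tpd52*, *Vill* and *Dnaic1* made up the rest, at 0.90 to 1.70 over EVP and 0.99 to 2.96 over D. The call held in 2 of 15 fits without a library for *Vill*, 4 for *Rab37*, 5 for *Cyfip2* and 6 for *Ccl9*, *Syt4* and *Ldhb*. It held in 7 for *Tpd52* and *Car14*, 8 for *Rassf7* and 9 to 13 for the remaining genes of this group.

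Of 8 Schwann cell genes 4 were called above the midpoint (2 with edgeR, 6 with DESeq2), with a median of 1.70, among them *S100b* at 1.81 (adjusted p = 0.00281), and by limma and edgeR 0 were called against EVP, where 5 had an unadjusted p under 0.05 and DESeq2 called 2. Of 8 platelet genes 1, *Pf4*, was called higher, and its TA mean of 1003 compared with 216.4 in EVP and 421.4 in D. Of 12 lymphocyte genes 1, *Gzmb*, a protease of cytotoxic cells, was called higher, at 4.29 (adjusted p = 0.0161). Of 15 genes of cyclins and their inhibitors 1, *Ccnd2*, which encodes cyclin D2, was called higher, at 1.21 (adjusted p = 0.00536). Its TA mean of 4651 was near that of EVP, at 4206, with a difference of 0.07 (adjusted p = 0.976), and D averaged 889.3. Of 15 factors of mesenchymal transition 1, *Zeb2*, was called higher and 1, *Zeb1*, lower, at 1.32 and -0.66. Of 6 stem cell and quiescence genes that the study had chosen on these samples, which are therefore not independent evidence, 2 were called higher, *Il33* at 3.31 and *Aldh1a1* at 3.10, and all 6 TA means lay between the others. On the counts themselves TA was over the average of EVP and D for 0 of the 6, with a median ratio of 0.747. The direction for this list thus depended on the scale. The Notch pathway, arterial, hypoxia and immediate early lists had 0 calls by limma. Of their 20, 18, 19 and 16 genes, 3, 2, 5 and 1 had an unadjusted p under 0.05, against 13.3% of all genes. DESeq2 called 3, 0, 1 and 1 genes of these lists and edgeR 1, 0, 0 and 0.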

How the data were processed

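The 15 libraries were sequenced from RNA of sorted GFP positive cells of B16-F0 tumors, 5 each from the EVP, TA and D gates. Per the labels and the methods of the study, reads were demultiplexed with bcl2fastq 2.17, aligned with STAR 2.5.3a, counted per gene with HTSeq-count (strand setting not given in the sources used here) and scaled with DESeq2 1.10.1. The authors deposited the result as signal, that is counts divided by a size factor for each library, in a single table. Its columns of fold changes and p-values hold the authors' own pairwise comparisons of the populations and were not used. Dividing each column by its smallest value above 0 gave whole reads for 100% of the values, to within 0.001, and depth and count tests rest on those reads. Intervals and limits from reads cover counting error only.

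Genes averaging 5 or more normalized counts were compared on log2(value + 1), which understates changes of low genes, with limma 3.58.1 in R 4.3.3 (mean-variance trend, 3 population means, no replicate term). The contrast was the TA mean minus the average of the EVP and D means, with the pairwise contrasts from the same fit. Folds are ratios of mean normalized counts. Benjamini-Hochberg adjustment ran over all genes tested at 0.05. The genes named were the 15 protein-coding genes furthest above both and below both populations and furthest above and below the midpoint, the other genes called above both, members of gene lists, and the 3 genes of the gates. These rules, the comparison and the lists were chosen with earlier results of these data known. Alternatives changed the pseudocount, the minimum, the scaling, library weights, a replicate term, the libraries, the scale of the midpoint and the test, with edgeR 4.0.16 and DESeq2 1.42.0 on the whole reads. The fit was tested on simulated data. Promoter sequences came from a RefSeq table on GRCm38.p6 and gene positions from the annotation of that build.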

Additional observations from a re-analysis of the deposited data

Results flagged for a closer look

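Of 387 groups of 5 libraries tested for a single library far from the others, 24 were flagged, 7 of them in EVP replicate 5 and 6 in D replicate 1. Chance flags about 1 in 20 groups. Values are normalized counts.

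EVP replicate 5 was the lowest EVP library for mast cell genes, with 0 for *Fcer1a*, 0 for *Mrgprb1*, 2.07 for *Tph1* and 2091 for the summed mast cell list, where the others held 10365 to 18390.4. It was the highest for *Ms4a7*, at 187.4, for *Acta2*, the smooth muscle actin, at 17973, and for the summed pericyte and smooth muscle list, at 39311. EVP replicate 2 was lowest for *Myh11*, a smooth muscle myosin, at 2.61, and highest for *Krt14*, a basal keratin, at 3185. The list of cyclins and their inhibitors stood out in EVP replicate 3, at 18277, and the Notch list in EVP replicate 1, at 6078.

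Among TA libraries, replicate 1 was highest for *Lama4*, at 9123, and replicate 5 for the G2 and M phase list, at 45655, against 26306 to 30023 in the other TA libraries.

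D replicate 1 was highest for *Tpsab1* at 5.49, *Prss34* at 2.75, *Mrgprb2* at 5.49, *Atp8b5* at 48.1 and *Wnt10a* at 12.4, genes at or near 0 in the other D libraries, and lowest for *Gbp3*, an interferon-induced GTPase, at 676.8. D replicate 4 was highest for *Tpsb2*, at 25.5, and lowest for *Dnase1l3*, at 33.1. *Rnf128* stood out in D replicate 3, at 179.0, *Ifit1* in D replicate 2, at 657.2, and the immediate early and heat shock list in D replicate 5, at 47342.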

How the results depend on the processing

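Of the 217 results on single genes, 5859 comparisons with an alternative gave 4938 of the same call, 840 that lost it and 64 that gained it. In 13 the sign changed where the main fit made no call, and in 4 a called result had the opposite sign. The 4 were on counts without a log, where TA minus the average of the EVP and D means was -272 for *Il1rl1*, -37600 for *Col1a1*, -29900 for *Dcn* and -68900 for *Col3a1* normalized counts. The cause was not tested.

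The 463 genes above and 63 below the midpoint became 301 and 24 with no minimum mean, 293 and 32 with quantile normalization, 706 and 135 with library weights, 1271 and 280 with DESeq2, 957 and 204 without the 3 libraries numbered 1, 64 and 4 without the 6 libraries with reads on over 50% of the olfactory receptor genes (chosen after seeing the data), and 19 and 4 on counts without a log. The 63 alone became 96 with a minimum mean of 20, 30 with libraries scaled to the same total, 19 with edgeR (535 above) and 41 with a log2 difference of at least 1. The 38 genes above both became 64 with a pseudocount of 8, 21 with no minimum, 65 with a minimum of 20, 79 with the same total, 198 with DESeq2, 6 with adjustment of the larger p and, by limma, 0 without the 6 libraries (373 unadjusted). The 14 below both became 26 with a minimum of 20, 23 with weights, 6 with edgeR, 45 with DESeq2, 4 with each pair of populations fitted alone, 1 with adjustment of the larger p and 0 without the 6 libraries (127 unadjusted). The 64 and 17 genes without overlap became 278 and 107 without the libraries numbered 1, and the 17 became 8 with the same total.

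Leaving out each library in turn gave 174 to 684 genes above the midpoint, 19 to 140 below, 11 to 63 above both, 5 to 41 below both, 65 to 173 with all TA libraries highest and 16 to 62 with all lowest. The share between the other populations ranged from 41 to 51.5%, and the median contrast of all tested genes from -0.0448 to 0.142. That median, 0.07, became 0.179 with the same total and -0.0524 with quantile normalization.

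With the replicate number as a block there were 780 genes above and 138 below the midpoint, 118 above both (34 of the 38) and 27 below both (14 of the 14). Deviations of libraries with the same number correlated at -0.136 to 0.689 and of others at -0.564 to 0.401. The best match among the 5 libraries of another population had the same number in 23 of 30 cases, a hint of pairing from the data. Of the 15 pairs with the same number 11 correlated over 0.1, and since pairing required all of them to do so, the calls rest on the fit without the block.

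Depth limits genes under 3 reads, which are 1.81 to 10.53 normalized counts.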
